A study of Arabidopsis thaliana with 4 samples.

Results

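A group of 6 nuclear genes with roles in plant immunity were followed between Arabidopsis seedlings given reduced glutathione (GSH) and control seedlings: the transcription factor genes WRKY6 (AT1G62300), WRKY22 (AT4G01250) and WRKY53 (AT4G23810), the kinase gene BIK1 (AT2G39660), the lipase-like gene SAG101 (AT5G14930) and AT5G52810, which acts in pipecolic acid synthesis. They make up 6 of the 13513 probe sets that the platform annotation assigns to exactly 1 gene, and 6 of 22746 gene probe sets in all. Each gene was represented by 1 probe set, and all 6 were found. They were picked with their differences between these same arrays already known, so those differences are described here and carry no test.

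The tissue was labelled as whole seedlings of ecotype Columbia, with no transgene or mutation stated. The GSH group (2 arrays) was treated for 72 hours after 15 days of growth, and the control group (2 arrays) carries the same age label. The treatment text is attached to all 4 samples, so the groups were taken from the titles. The GSH dose, and whether controls were kept for the added 72 hours, are not stated in the labels. Sample descriptions that speak of embryos go against the tissue label and were set aside. Values are log2 expression values, where 1 unit is a 2-fold difference, and differences are GSH minus control throughout.

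Plants detect microbes at the cell surface, where receptor kinases bind microbial patterns and pass the signal to cytoplasmic kinases such as BIK1, which phosphorylates the oxidase that makes reactive oxygen. MAP kinase cascades then act on WRKY transcription factors, a plant family named for a conserved amino acid motif, and WRKY22 is a well-known factor of this branch. Inside the cell, SAG101 pairs with EDS1 to relay signals from intracellular immune receptors, and pipecolic acid, made from lysine, is the precursor of the mobile signal for resistance in distant leaves. WRKY53 and WRKY6 are also known for their roles in leaf senescence.

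The 6 genes did not move together. AT5G52810 was 5.77-fold higher in GSH seedlings and WRKY53 was 3.03-fold lower, while WRKY6 was 1.55-fold higher. WRKY22, BIK1 and SAG101 differed by about 0.3 log2 units, WRKY22 upward and the other two downward. For all 6 genes the GSH arrays lay on one side of both control arrays, which was also true of 65.2% of all gene probe sets, so this count says nothing particular about them.

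**Figure D1:**
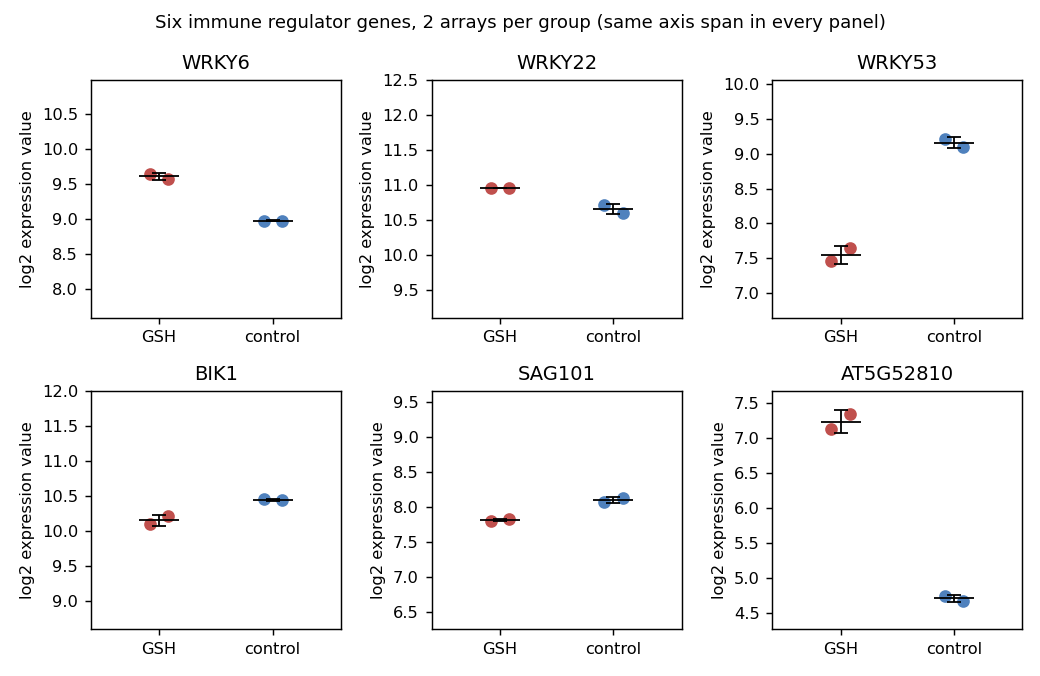
Log2 expression value (vertical axis, the same span of log2 units in every panel) of the 6 genes on the 2 GSH arrays and the 2 control arrays; points are arrays, long bars are group means and whiskers are 1 SD. AT5G52810 and WRKY53 show the widest separation, and the groups of BIK1, SAG101 and WRKY22 lie within about 0.3 log2 units of each other.

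Among the signalling components, BIK1 encodes a receptor-like cytoplasmic kinase that associates with pattern receptors. Its log2 value was 10.10 and 10.21 on the GSH arrays, against 10.46 and 10.44 on the control arrays. Both GSH arrays were lower, and the nearest arrays of the groups lay 0.23 apart, against 0.11 between the GSH arrays themselves. The group means were 10.16 ± 0.08 in GSH seedlings and 10.45 ± 0.01 in control seedlings (SD, n = 2 each), a difference of -0.29.

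SAG101, whose protein forms a complex with EDS1, had log2 values of 7.80 and 7.83 on the GSH arrays and 8.08 and 8.14 on the control arrays. The GSH arrays were again both lower, and here the arrays of a group lay within 0.064 of each other. Means were 7.81 ± 0.02 with GSH and 8.11 ± 0.05 without it (SD, n = 2 each), a difference of -0.29. Differences of at least this size were common on these arrays, since 31.1% of all gene probe sets differed by more than SAG101 and 31.3% by more than BIK1.

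The 3 WRKY factors went in different directions. WRKY22 had log2 values of 10.96 and 10.96 on the GSH arrays, against 10.71 and 10.60 on the control arrays. The GSH arrays were nearly identical and both lay above the controls, with means of 10.96 ± 0.002 in GSH seedlings and 10.66 ± 0.08 in control seedlings (SD, n = 2 each) and a difference of 0.30. A larger difference in either direction was found for 30.4% of gene probe sets.

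WRKY6, a factor linked to senescence, pathogen response and phosphate homeostasis, had log2 values of 9.64 and 9.58 with GSH, against 8.97 and 8.98 in the controls. Both GSH arrays were higher by far more than the 0.065 that separated them. Means were 9.61 ± 0.05 in GSH seedlings and 8.98 ± 0.01 in control seedlings (SD, n = 2 each), a difference of 0.64 that 10.5% of gene probe sets exceeded in size.

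WRKY53, a regulator at the junction of senescence and defence, was the lowest of the 6 in its difference. Log2 values were 7.46 and 7.65 on the GSH arrays and 9.21 and 9.10 on the control arrays, so the nearest arrays of the groups stood 1.45 apart. The mean was 7.56 ± 0.13 in GSH seedlings and 9.15 ± 0.08 in control seedlings (SD, n = 2 each), a difference of -1.60. A difference of larger size was found for 1.17% of gene probe sets, and WRKY53 held place 47 among the decreases of the 13513 single-gene probe sets.

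AT5G52810 encodes the reductase that completes pipecolate formation from lysine-derived intermediates. Log2 values were 7.12 and 7.35 on the GSH arrays, against 4.74 and 4.68 on the control arrays. The groups stood 2.38 apart at their nearest arrays, and the GSH arrays differed from each other by 0.23, the widest gap within a group among the 6 genes. Means were 7.24 ± 0.16 in GSH seedlings and 4.71 ± 0.05 in control seedlings (SD, n = 2 each). The difference of 2.53 held place 9 among the increases of single-gene probe sets, and 0.180% of all gene probe sets differed by more. The control values lay below the median of all gene probe sets (5.37) and no detection calls were used, so the control level was not shown to be above background and the size of the fold is uncertain.

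**Figure D2:**
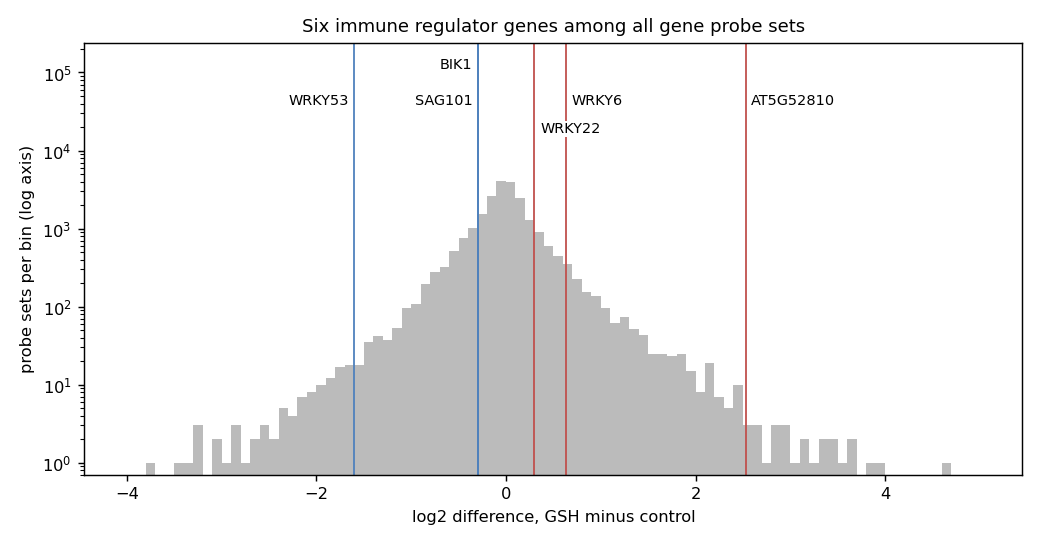
Distribution of the log2 difference, GSH minus control, over 22746 gene probe sets (horizontal axis, bins of 0.1 log2 units; vertical axis, probe sets per bin on a log scale), with vertical lines at the 6 genes, red where higher in GSH seedlings and blue where lower. BIK1, SAG101 and WRKY22 lie in the broad centre, WRKY53 at -1.60 and AT5G52810 at 2.53 in the sparse tails.

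Because all 6 genes were read on the same arrays, a constant added to all values of an array cancels within a pair. Earlier quantile normalization of the arrays does not cancel in this way. The log2 value of WRKY6 minus that of WRKY53 was 2.18 and 1.93 on the GSH arrays, against -0.24 and -0.12 on the control arrays. The shift of 2.24 log2 units towards WRKY6 restates the differences of the pair, for which the genes were picked, free of any such constant. WRKY22 minus WRKY53 shifted likewise by 1.90 units, with 3.49 and 3.31 on the GSH arrays against 1.503 and 1.504 on the control arrays.

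BIK1 minus SAG101 behaved differently. It was 2.30 and 2.39 on the GSH arrays and 2.38 and 2.30 on the control arrays, a shift of 0.002 with overlapping groups. WRKY22 minus BIK1 was 0.86 and 0.75 with GSH, against 0.26 and 0.16 without it, and WRKY22 minus SAG101 shifted by 0.59. WRKY53 minus AT5G52810 was 0.34 and 0.30 on the GSH arrays and 4.47 and 4.42 on the control arrays, a shift whose size (-4.13) is uncertain because the control values of AT5G52810 were not shown to be above background. All these shifts restate the differences for which the genes were picked. Apart from BIK1 with SAG101, they show unequal change between genes, not which of a pair moved.

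The small differences depend on how arrays are scaled. Control RNA spiked into the samples gave lower signals on the GSH arrays. The 27 probe sets for Bacillus RNA with poly(A) tails had a median difference of -0.26, with 24 of 27 lower, and the 18 hybridization control probe sets had a median of -0.16, with 17 of 18 lower. Single Bacillus probe sets ranged from -0.87 to 0.13. Centring used the median of each array's control probe sets, which differed between the groups by -0.14 for Bacillus RNA and by -0.22 for the hybridization controls, an order opposite to that of the medians of differences. These offsets depend on single arrays. The Bacillus offset was -0.07 without GSH replicate 2 and -0.08 without control replicate 1, and the hybridization offset was -0.09 without GSH replicate 1 and -0.35 without GSH replicate 2. With arrays centred on the Bacillus controls, BIK1 stood at -0.15 and SAG101 at -0.15, and centred on the hybridization controls at -0.07 each. WRKY22 stood at 0.44 and 0.52 under those scalings, WRKY6 at 0.78 and 0.86, WRKY53 at -1.46 and -1.38, and AT5G52810 at 2.67 and 2.75. No gene of the 6 changed direction under these or under centring on array medians or renewed quantile normalization. Centring on the control RNA moved the median of all gene probe sets to 0.13 and 0.21, against -0.01 as deposited. Such centring adds 1 constant to all probe sets of an array, so measured from the median of all probe sets BIK1 stood at -0.28 and SAG101 at -0.29 under both.

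**Figure D3:**
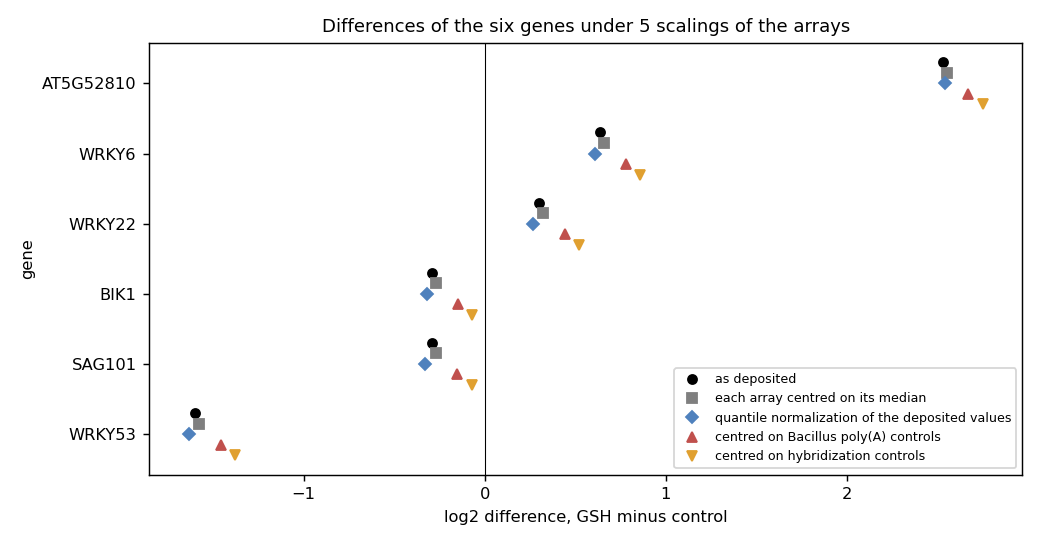
Log2 difference, GSH minus control (horizontal axis), of each of the 6 genes under 5 scalings of the arrays, shown by marker shape. Centring on spiked-in controls moves every gene to the right, which brings BIK1 and SAG101 to -0.07 and leaves WRKY53 at -1.38 or below and AT5G52810 above 2.5.

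Other values of the arrays stand beside these results. The probe set for 25S ribosomal RNA gave 8.19 and 7.998 on the GSH arrays, against 11.11 and 11.01 on the control arrays. Leaf markers were also lower as deposited, with 3 of 8 listed markers measured and a median of -0.24. That fall depends on scaling too, since the hybridization offset was -0.22. RCA and LHCB4.2 passed the test described below and LHCB4.1 did not, 2 of 3 measured. Of all gene probe sets 33.8% passed, 17.5% as lower. The summed signal of the 3 leaf markers was 13.07 and 13.16 in log2 on the GSH arrays, against 13.40 and 13.33 on the control arrays. None of 3 measured root markers of 6 listed (PYK10, EXPA7 and EXPA18) passed. All lay near 4 in log2 value, not shown to be above background, so they gave no sign of root in tissue labelled as whole seedlings. Their summed signal was 5.64 and 5.80 on the GSH arrays and 5.84 and 5.80 on the control arrays. The mean difference of the 3 leaf markers was -0.29 as deposited, the size found for BIK1 and SAG101, and their part in those differences was not tested. In whole seedlings, fewer cells of a type and less RNA per cell cannot be told apart. Arrays of a group correlated at 0.998 and arrays across the groups at 0.982 over gene probe sets, as a description across genes, which are no independent replicates.

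The surrounding pathways were read from 9 lists of 270 genes, of which 21 had a probe set with exactly 1 gene in the annotation and the other 249 were not analysed here. These genes did not enter the choice of the 6, but the lists were chosen with earlier results of these data known. They were tested with limma across all 22746 gene probe sets (Benjamini-Hochberg adjustment, threshold 0.05). There 33.8% of probe sets passed, 16.2% higher and 17.5% lower in GSH seedlings. Of the 21 genes 7 passed (33.3%), 1 higher and 6 lower, a share close to that of all probe sets. Their median difference was 0.003, against -0.01 for all probe sets. The count by direction depends on scaling, with 2 higher and 3 lower when arrays were centred on Bacillus controls, and 2 higher and 0 lower when centred on hybridization controls. All 6 lower calls thus ended under the hybridization controls, and those of FER, PUB23 and WRKY47 under the Bacillus controls too. The hybridization offset was -0.22, but -0.09 without GSH replicate 1, and the Bacillus offset was -0.14, but -0.07 without GSH replicate 2. Centring also changes the spread within a group, since the hybridization medians of the GSH arrays were 8.73 and 8.99. SGT1A did not pass at -0.37 under the hybridization controls (limma adjusted p = 0.0806), while WRKY47 passed at -0.30 as deposited (0.0269). The parts of offset and spread in the lost calls were not tested. Without moderation of the spread, UGT76B1 and FER were the 2 that passed.

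In lysine and pipecolate metabolism, 3 of 10 listed genes were measured and 1 of them passed. UGT76B1, a glucosyltransferase that acts on isoleucic acid, salicylic acid and the hydroxylated form of pipecolic acid, had log2 values of 6.16 and 6.30 on the GSH arrays, against 4.66 and 4.63 on the control arrays. It rose by 1.59 ± 0.08 log2 units (SE, n = 2 per group; limma adjusted p = 3.66e-05) and passed under all 12 alternatives with differences from 1.51 to 1.81. Its control values, like those of AT5G52810, lay below the median of all probe sets, and no detection call shows them above background.

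The lysine-degrading enzyme gene LKR/SDH showed no such difference, with 12.36 and 12.34 on the GSH arrays and 12.35 and 12.34 on the control arrays (0.00 ± 0.07, SE). The aldehyde dehydrogenase gene ALDH7B4 had 12.72 and 12.67 with GSH, against 12.64 and 12.70 without it, and did not pass either (0.02 ± 0.07, SE). No other gene for making pipecolate was among the 3 measured ones.

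Of 4 other WRKY factors measured among 68 in the list, 2 fell and 2 did not pass. WRKY20 had 6.53 and 6.60 on the GSH arrays, against 7.20 and 6.95 on the control arrays, and fell by 0.50 ± 0.10 log2 units (SE, n = 2 per group; limma adjusted p = 0.00817). WRKY47 fell by 0.30 ± 0.08 (limma adjusted p = 0.0269), a call that was lost without GSH replicate 1 (adjusted p = 0.0971), without GSH replicate 2 (0.0767) and without control replicate 1 (0.152), with adjusted p-values from 0.0148 to 0.708 over its alternatives. WRKY42, which acts with WRKY6 on the phosphate exporter gene PHO1, stood at 0.03 with group means of 4.04 and 4.01 in GSH and control seedlings, in the lowest 25% of probe sets. WRKY1 stood at 0.15 ± 0.09 (SE).

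Upstream of BIK1, 4 of 26 genes of the receptor list were measured and 2 of them fell. Of all gene probe sets 17.5% passed as lower. FER, for the receptor kinase FERONIA that binds RALF peptides and scaffolds immune receptor complexes, had 11.05 and 11.02 on the GSH arrays, against 11.47 and 11.50 on the control arrays. It fell by 0.44 ± 0.07 log2 units (SE, n = 2 per group; limma adjusted p = 0.00304), and AT1G27190 fell by 0.51 ± 0.09 (limma adjusted p = 0.00491). AT1G61380, an S-domain receptor kinase gene, stood at 0.03. EFR, the receptor for bacterial elongation factor Tu, had 5.30 and 5.84 on the GSH arrays, against 5.32 and 5.27 on the control arrays, and did not pass (0.27 ± 0.16, SE). The GSH arrays of EFR disagreed. EFR passed in 3 of 12 alternatives. These were 0.54 without GSH replicate 1, 0.41 with centring on Bacillus controls (limma adjusted p = 0.0106) and 0.49 with centring on hybridization controls (0.0135). Without GSH replicate 2 it stood at 0.005. Adjusted p-values under control centring are not comparable with the others. That of UGT76B1 went from 3.66e-05 as deposited to 7.05e-35 with centring on Bacillus controls (limma).

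None of the 3 genes measured among 50 in the list of cytoplasmic immune kinases, the class of BIK1, passed. AT3G09830 stood at -0.25 ± 0.08 (SE; limma adjusted p = 0.0563), a size near that of BIK1, and it passed in 4 of 12 alternatives. These were the fit without GSH replicate 1 (-0.33, limma adjusted p = 0.0488), renewed quantile normalization (-0.29, 0.0394), the filter on low values (0.0457) and the intensity trend (0.0161), while the highest adjusted p over the alternatives was 0.896. AT5G03320 stood at 0.13 and PBL27, which links chitin perception to MAP kinases, at -0.21. The group means of PBL27, 4.26 in GSH seedlings and 4.47 in control seedlings, were not shown to be above background.

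Downstream, the list on MAP kinases, calcium-dependent kinases and the oxidase held 3 measured genes among 26. All 3 encode U-box ubiquitin ligases that dampen pattern-triggered responses. PUB23 fell by 0.43 ± 0.07 log2 units (SE, n = 2 per group; limma adjusted p = 0.00351), with 10.59 and 10.59 on the GSH arrays against 11.00 and 11.05 on the control arrays. Its relatives PUB22 (0.01) and PUB24 (0.00) did not pass. The list thus gave no reading of the kinases and the oxidase it is named for.

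Beside SAG101, the list on EDS1 and intracellular receptors held 2 measured genes among 19. SGT1A, a co-chaperone that helps stabilise intracellular immune receptors, had 11.56 and 11.46 on the GSH arrays, against 12.09 and 12.11 on the control arrays. It fell by 0.59 ± 0.07 log2 units (SE, n = 2 per group; limma adjusted p = 0.00126). AT3G48080 stood at 0.06 with a control mean of 4.27, close to the lowest 25% of values.

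For leaf senescence, the process WRKY53 and WRKY6 are known for, 2 of 28 listed genes were measured and neither passed. NOL, for a chlorophyll b reductase, stood at -0.20 ± 0.07 (SE; limma adjusted p = 0.0902), with 7.94 and 8.04 on the GSH arrays against 8.21 and 8.16 on the control arrays. It passed in 1 of 12 alternatives, at -0.23 with renewed quantile normalization (limma adjusted p = 0.04996). SAG29, a sugar transporter gene, stood at 0.06, with group means of 4.95 with GSH and 4.90 without it that were not shown to be above background either. The lists of pattern-triggered targets and of salicylic acid and systemic resistance could not be read. None of their genes had a probe set with exactly 1 gene in the annotation.

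**Figure D4:**
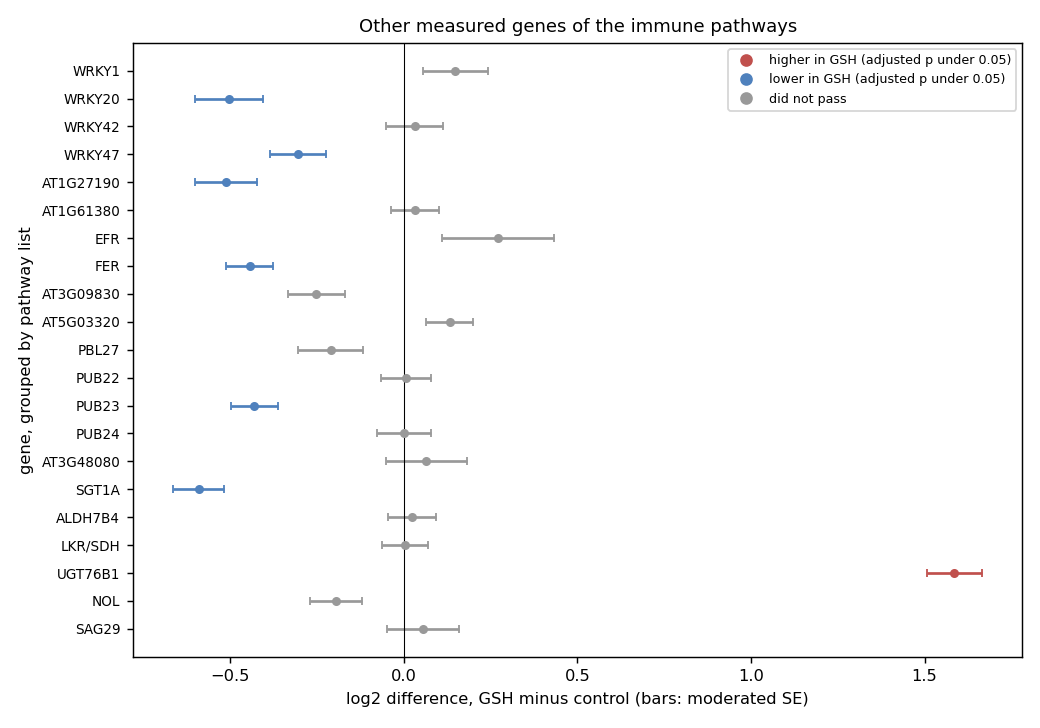
Log2 difference, GSH minus control, with moderated standard error (horizontal axis), of the 21 measured genes of the pathway lists, grouped by list, with red for genes higher and blue for genes lower in GSH seedlings at an adjusted p under 0.05 and grey for those that did not pass. UGT76B1 stands alone at 1.59, and the 6 lower genes lie between -0.59 and -0.30.

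The genes with the most similar array profiles were found for each of the 6 as a description, by the Euclidean distance between profiles centred on their own mean over the 4 arrays. Nearest to AT5G52810 was GFAT, whose enzyme opens the hexosamine pathway, at a distance of 0.21, with 7.21 and 7.29 on the GSH arrays against 4.95 and 4.85 on the control arrays. AT3G60420 and AT2G19970 followed at 0.24 and 0.30. Nearest to WRKY53 were AT1G75800, AT5G18470 and AT5G20700, all at 0.15 to 0.16 and with differences from -1.57 to -1.45. The genes nearest to WRKY6 were AT3G01720, AT1G49960 and the beta-glucosidase gene BGLU16, within 0.028. For the 3 genes with small differences the neighbours lay closer, at 0.008 to 0.019 for WRKY22 (AT3G03440, AT1G05210 and the thioredoxin gene TO2), 0.017 to 0.020 for BIK1 (AT5G60760, AT5G08580 and AT4G35320) and 0.005 to 0.011 for SAG101 (AT3G01920, AT3G13690 and AT5G66090). With 4 arrays in 2 groups, such closeness reflects a like difference between the groups, and the crowded centre of the distribution supplies near neighbours for any small difference.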

How the data were processed

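Total RNA from whole seedlings was extracted with Trizol and hybridised as biotin-labelled cRNA to 4 Affymetrix one-colour arrays, per the labels' protocols. The deposited values are log2 expression values, made by the authors with RMA in Affymetrix Expression Console, per the submitters' processing notes (versions not stated). RMA corrects background, normalizes quantiles and summarises the probes of a set by median polish. They were used as deposited. Quantile normalization hides a change shared by most transcripts, and the number of arrays limits the precision.

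Of 22746 gene probe sets, 13513 carried 1 gene, 503 several and 8730 none in the platform annotation, and 13436 of the 13513 matched a RefSeq gene of assembly TAIR10.1. Another 64 control probe sets stayed out of the tests. The files name no genome build, so no coordinates are given.

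The groups were tested against each other in R 4.3.3 using limma 3.58.1 (lmFit, then eBayes, 2 residual degrees of freedom, threshold 0.05 after Benjamini-Hochberg adjustment over all gene probe sets), which was tested on simulated data. Replicates are named biological in the titles without mention of separate cultures or plates, and p-values therefore cover no more than the spread among these samples, which may be technical. The replicate numbers were checked for pairing: deviations from the group means of same-numbered arrays correlated at -0.10, so the arrays were not treated as paired. The 6 genes and the pathway lists were chosen with earlier results of these data known. Named were the 6 genes, all genes of lists with 6 or fewer measured ones, and the 3 nearest profiles of each gene. Alternatives were 4 scalings of the arrays, a replicate block, leaving out each array, a filter on low values, an intensity trend and a test without moderation.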

Additional observations from a re-analysis of the deposited data

How the results depend on the processing

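Each of the 6 genes kept its direction under the 4 scalings, run with all arrays. Leaving out 1 array could not reverse a direction, because the groups did not overlap for any of the 6 genes. Scaling with an array left out was not run. Without GSH replicate 2 the hybridization offset (-0.352) was larger in size than the differences of BIK1 (-0.346) and SAG101 (-0.305). The replicate block cannot move a difference between balanced groups. With each array left out, differences ranged from 2.42 to 2.64 for AT5G52810, from -1.69 to -1.51 for WRKY53, from 0.60 to 0.67 for WRKY6, from 0.25 to 0.35 for WRKY22, from -0.35 to -0.24 for BIK1 and from -0.33 to -0.26 for SAG101. Centred on Bacillus controls they were 2.67, -1.46, 0.78, 0.44, -0.15 and -0.15 in that order, and centred on hybridization controls 2.75, -1.38, 0.86, 0.52, -0.0688 and -0.0713. SAG101 also moved to -0.33 with renewed quantile normalization.

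Without moderation of the spread 1425 gene probe sets passed in place of 7680, and 2 of the 21 list genes in place of 7. With centring on hybridization controls 2 list genes passed. The split of calls over all probe sets was 3692 higher and 3988 lower as deposited, 4805 and 1967 when centred on Bacillus controls and 4878 and 1183 when centred on hybridization controls. With the replicate block 6235 probe sets and 6 list genes passed, WRKY47 being the call lost (adjusted p = 0.0621), and with the numbers crossed between groups, a pairing chosen after seeing the data, 6898 and 7 passed. Taking the mean of all probe sets of a gene could not differ, since each list gene had 1. The cause of these shifts was not tested. Low signals limit the fold of AT5G52810 and UGT76B1, whose control values were not shown to be above background.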
